A study of Mus musculus with 6 samples.

Results

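The Dux and Dppa genes described here are 5 genes that pluripotent stem cells use at the boundary to the totipotent state and to the germline: Duxf3 (also named Dux), Dppa2, Dppa4, Dppa3 and Dppa5a. They were taken by name from a table of gene counts, where each had 1 entry, and make up 5 of its 41388 gene entries. The counts came from 6 poly(A) RNA-seq libraries of mouse induced pluripotent stem cell (iPSC) lines on a C57BL/6 background. There were 3 miR-34a-/- (knockout) lines and 3 wild-type lines, labelled as independent. Both genotypes were reprogrammed from fibroblasts of littermate embryos at embryonic day 13.5 with retroviral mouse Oct4, Sox2 and Klf4, so all lines carry these transgenes. Colonies were picked one by one and expanded on irradiated mouse fibroblast feeders, which can add fibroblast RNA to every library. The sources used here do not say which lines share an embryo, and p-values measure the spread between these lines. The comparison asks how these genes differ in RNA level between cells with and without miR-34a, a microRNA of the p53 response.

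Dux is a homeodomain transcription factor that is transiently made in the early mouse embryo, where it activates genes of the 2-cell stage and the MERVL endogenous retrovirus. A small share of cells in pluripotent cultures re-enters a state of this kind. DPPA2 and DPPA4 are SAP domain proteins that bind chromatin as a pair and are reported to be needed for Dux expression in mouse embryonic stem cells. DPPA3 (also Stella or PGC7) is a maternal and germ cell protein that protects DNA methylation in the zygote and restrains the methylation cofactor UHRF1 in oocytes. DPPA5A (also ESG1) is an RNA-binding protein with a KH domain and a classical marker of undifferentiated cells.

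3 sequences show what was deleted and what limits the Dux counts. The first is the mature strand of the deleted microRNA (RefSeq, GRCm38.p6, chr4:150068473-150068494, plus strand), with its seed, bases 2 to 8, in capitals.
mmu-miR-34a-5p: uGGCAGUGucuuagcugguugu
The seed match in a transcript reads CACTGCC. It was found in none of the 9 protein-coding transcripts that GENCODE M21 lists for the 5 genes. Of 13478 tested protein-coding genes, 5113 (37.9%) held it in at least 1 transcript of any length. The 9 transcripts are 619 to 2447 bases long, and this share was not matched for length. Absence of these letters says nothing about regulation by other routes.
The second is a coding stretch that the Dux copies share, apart from 2 bases in Gm4981, shown because reads from it can match more than 1 copy. It covers bases 1966 to 2025 of the coding transcript Duxf3-202 (GENCODE M21, mm10, transcribed from the minus strand of chromosome 10). The capitals mark the bases of Gm4981 that differ from Duxf3.
Duxf3: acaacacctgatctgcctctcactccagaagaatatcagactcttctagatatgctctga
Gm4981: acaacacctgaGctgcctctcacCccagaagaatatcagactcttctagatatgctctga
The copies AW822073, Gm10807 and Gm19459 hold the Duxf3 letters without a difference over these 60 bases.
The third is the Duxf3 promoter, 250 bases before to 50 after the RefSeq start (GRCm38.p6, chr10:58233040-58233339, minus strand), which lies upstream of the GENCODE gene end. Capitals mark GATTNAATC preceded by T, the core of the motif reported for mouse DUX, searched on both strands.
Duxf3 promoter: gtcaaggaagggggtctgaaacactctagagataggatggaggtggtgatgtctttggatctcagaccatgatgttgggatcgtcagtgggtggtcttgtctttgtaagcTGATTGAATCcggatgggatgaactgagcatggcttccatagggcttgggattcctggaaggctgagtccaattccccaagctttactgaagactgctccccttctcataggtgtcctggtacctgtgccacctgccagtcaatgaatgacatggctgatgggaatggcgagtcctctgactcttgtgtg
The motif starts 140 bases before the start site. The same letters occurred in 38 of 32851 promoters of this length (0.116%). They occurred in 0 of the 19 listed 2-cell genes that have a promoter sequence. GATTNAATC without the leading T, which lies inside the longer motif and has a core that reads alike on both strands, occurred in 88 promoters (0.268%) and in 1 of those 19 genes. A match is a description of letters and not of binding.

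Libraries held 8721581 to 29654855 counts in knockout lines and 8432597 to 25698286 in wild-type lines, with 5.4% to 6.16% of them in repeat families. Libraries of a genotype differed by more than sampling noise, with a chi-square per gene of at least 5.43 in knockout pairs and 2.25 in wild-type pairs. The hairpin gene Mir34a had 1, 0 and 0 counts in knockout lines and 2, 0 and 0 in wild-type lines, so poly(A) counts give no check of the labels. The iPSC label fits the marker levels: Pou5f1 averaged 1179 ± 87.6 CPM (gene counts scaled to a common library size) in knockout and 873 ± 82.0 CPM in wild-type lines (SD, n = 3 each), and all 23 listed pluripotency genes passed the count filter. Fibroblast and feeder markers summed to 371 to 453 CPM in knockout and 534 to 764 CPM in wild-type lines. Of 11 tested markers 9 were called lower and 1 higher in knockout, where 24% of all tested genes were called lower and 26.5% higher. The calls of Col1a1 and Twist1 were lost, and Col1a2 was called lower, when some single libraries were left out or under other settings. The listed Y-linked genes were near 0 in knockout and clear in wild-type lines, with Eif2s3y at 0.0169 CPM in knockout and 17.3 CPM in wild-type. Xist, the RNA of X inactivation, averaged 4.88 CPM in knockout and 3.07 CPM in wild-type. Sex chromosome content and genotype therefore cannot be told apart, and the part of feeder RNA in the results was not tested. A gene was called when edgeR's quasi-likelihood test gave it an adjusted p (Benjamini-Hochberg) below 0.05. Log2 fold changes set knockout over wild-type.

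Of the 5 genes, Duxf3, Dppa2 and Dppa5a rose in knockout lines, Dppa3 fell, and Dppa4 was not called. The 4 calls stand against a background in which 7433 of 14717 tested genes (50.5%) were called, 26.5% higher and 24% lower, with a median log2 fold change of 0.01. The CPM ranges of the genotypes did not overlap for 4 of the 5 genes, against 55.9% of all tested genes. The genes differed from one another in the size and direction of their change. Duxf3 ranked 130 from the top of all fold changes and Dppa3 89 from the bottom, while the other 3 were within 0.38 of 0 on the log2 scale. Duxf3 passed the count filter only through the knockout libraries, so for it a higher knockout level was a condition of being tested. The other 4 passed in every library.

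**Figure D1:**
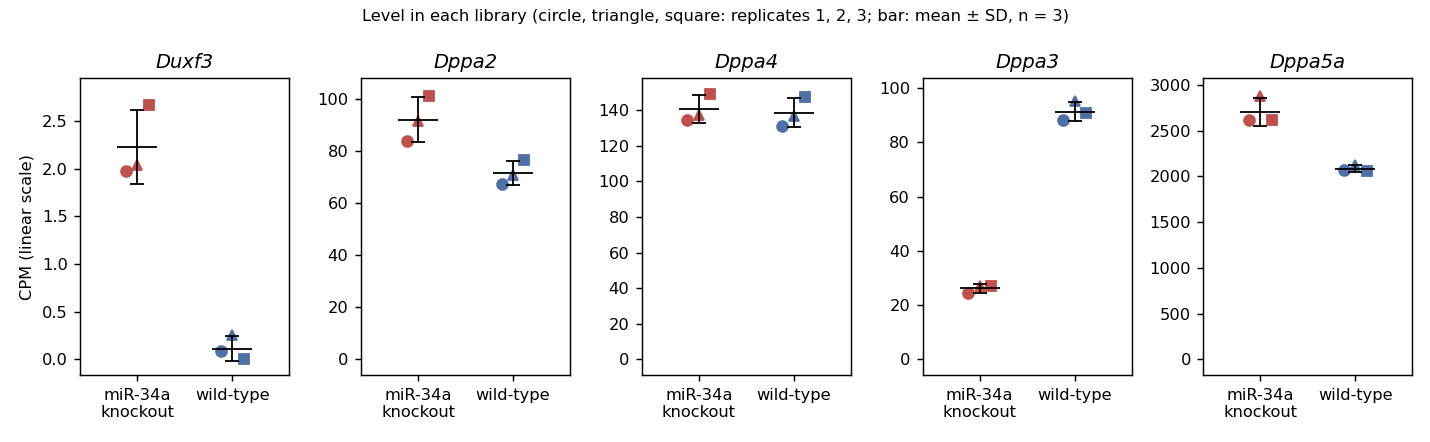
CPM of Duxf3, Dppa2, Dppa4, Dppa3 and Dppa5a in each library, with a panel and a linear axis for each gene and knockout left of wild-type. Points are the 3 lines, lines and bars the mean and SD. Knockout points lie above wild-type points for Duxf3, Dppa2 and Dppa5a, below them for Dppa3, and among them for Dppa4.

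Duxf3 (ENSMUSG00000075046, mm10, chr10:58229979-58232675, minus strand) encodes the factor that switches on 2-cell genes. It had 39, 57 and 22 counts in knockout replicates 1 to 3 and 2, 2 and 0 counts in wild-type replicates 1 to 3. In CPM it was 1.97, 2.04 and 2.67 in knockout and 0.0828, 0.252 and 0 in wild-type lines. Every knockout line was above every wild-type line, and the zero in wild-type replicate 3 allows up to 0.191 CPM (3 counts). Duxf3 averaged 2.23 ± 0.385 CPM in knockout and 0.112 ± 0.128 CPM in wild-type lines (SD, n = 3 each). A log2 increase of 1 or more was called for 7.6% of tested genes. The log2 fold change of Duxf3 was 4.56 (SE 0.469, 95% interval 3.58 to 5.54, adjusted p = 1.6e-07, edgeR with Benjamini-Hochberg adjustment). From the pooled counts, 118 in knockout and 4 in wild-type, the ratio was 25.2 with an exact interval of 9.60 to 94.1 that covers counting error only. The size rests on few wild-type counts: the log2 fold change was 5.25 without wild-type replicate 2 and 4.02 without wild-type replicate 3. Without both shallow libraries, knockout replicate 3 and wild-type replicate 2, it was 5.17. In bulk RNA, more cells with Dux transcripts and more transcripts per cell cannot be told apart.

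Duxf3 lies in a tandem array on chromosome 10, and 53.0% of its 50-base stretches occur in no other annotated gene. It shares 32.5% of them with AW822073, 21.1% with Gm10807, 6.71% with Gm4981 and 4.14% with Gm19459. The split of counts among these entries is therefore uncertain, and their sum is given beside Duxf3. AW822073 (chr10:58222972-58224930) had 32, 48 and 9 counts in knockout and 1, 0 and 0 in wild-type lines. The ratio was 76.1 with an exact interval of 13.3 to 3040. Gm4981 (chr10:58234848-58236701) had 14, 18 and 11 counts in knockout and none in wild-type lines. Against a wild-type floor of 3 counts over the group its pooled knockout level was 12.3-fold higher. This value leaves out the counting error of the knockout counts. Like Duxf3, both entries passed the count filter only through the knockout libraries, which fixes their direction. Gm10807 had 2, 4 and 5 counts in knockout and 0, 1 and 0 in wild-type lines and was not past the count filter. Gm19459 had 1, 1 and 0 counts in knockout and none in wild-type lines, which is under the floor. Summed over the 5 entries, the array had 88, 128 and 47 counts in knockout and 3, 3 and 0 in wild-type lines, or 4.91 ± 0.689 CPM and 0.167 ± 0.193 CPM (SD, n = 3 each). The ratio of the sums was 37.5 (exact interval 17.0 to 103), and without Duxf3 it was 62.0 (16.9 to 517). Of the Duxbl genes, relatives of Dux elsewhere in the genome, Duxbl1 had 31, 13 and 8 counts in knockout and 22, 7 and 29 in wild-type lines. Its log2 fold change was -0.36 (adjusted p = 0.55, edgeR, Benjamini-Hochberg) with overlapping groups. Duxbl3 had 3, 1 and 0 counts in knockout and 2, 0 and 3 in wild-type lines, and Duxbl2 had none in any library.

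**Figure D2:**
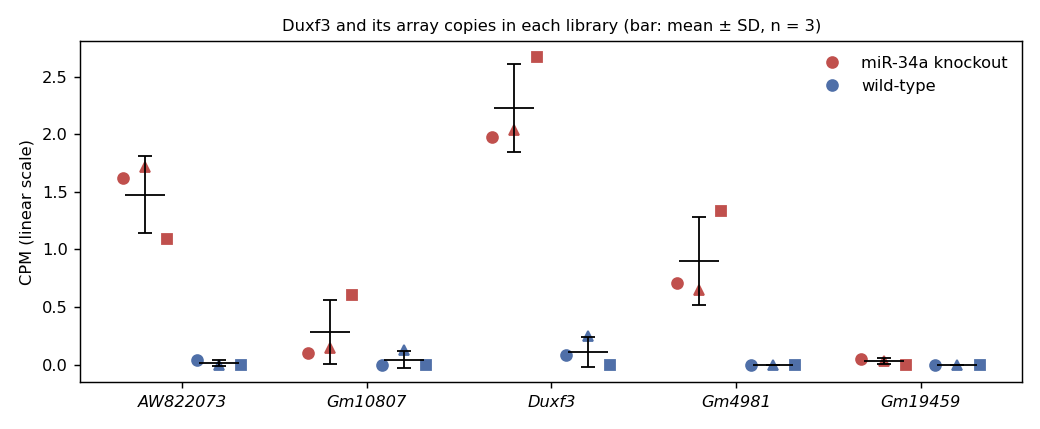
CPM of the 5 Dux array entries in each library, in genomic order, with knockout left of wild-type in each pair, points for the 3 lines and bars for the mean and SD. Duxf3 and AW822073 carry most of the knockout counts, and every wild-type point lies at or below 0.252 CPM.

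DPPA2 and DPPA4 act as a pair upstream of Dux, and their genes lie beside each other on chromosome 16. Dppa2 (ENSMUSG00000072419, chr16:48303908-48319723, plus strand) was 83.7, 91.3 and 101 CPM in knockout and 67.4, 70.6 and 76.5 CPM in wild-type lines. The lowest knockout line was above the highest wild-type line. Dppa2 averaged 92.0 ± 8.63 CPM in knockout and 71.5 ± 4.63 CPM in wild-type lines (SD, n = 3 each). Its log2 fold change was 0.36 (SE 0.0736, 95% interval 0.21 to 0.52, adjusted p = 0.00055, edgeR, Benjamini-Hochberg).

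Dppa4 (ENSMUSG00000058550, chr16:48283733-48294237, plus strand) was 135, 137 and 149 CPM in knockout and 131, 137 and 147 CPM in wild-type lines. The groups overlapped over nearly their whole range. Dppa4 averaged 140.5 ± 7.81 CPM in knockout and 138 ± 8.19 CPM in wild-type lines (SD, n = 3 each). Its log2 fold change was 0.02 (SE 0.0612, adjusted p = 0.79, edgeR, Benjamini-Hochberg). The 95% interval of -0.11 to 0.15 bounds the difference at this depth, and its sign changed when knockout replicate 3 or wild-type replicate 1 was left out. The difference between the pair was measured within each library: the log2 ratio of Dppa2 to Dppa4 counts was -0.69, -0.59 and -0.57 in knockout and -0.96, -0.95 and -0.94 in wild-type lines. Knockout lines were thus shifted by 0.34 towards Dppa2, with no overlap (two-sided exact permutation p = 0.1, the smallest that 3 against 3 allows).

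Dppa3 (ENSMUSG00000046323, chr6:122626410-122630272, plus strand) was the gene of the 5 that fell. It was 24.4, 27.0 and 27.1 CPM in knockout and 88.2, 95.1 and 90.9 CPM in wild-type lines. Each genotype was tight, and the wild-type lines were all at least 3 times above any knockout line. Dppa3 averaged 26.2 ± 1.53 CPM in knockout and 91.4 ± 3.50 CPM in wild-type lines (SD, n = 3 each). It fell by 1.80 on the log2 scale (SE 0.0668, 95% interval -1.94 to -1.66, adjusted p = 7.3e-14, edgeR, Benjamini-Hochberg). A log2 decrease of 1 or more was called for 2.7% of tested genes.

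Dppa5a (ENSMUSG00000060461, chr9:78367052-78368177, minus strand) was the most abundant of the 5, ranking 25 among tested genes by mean CPM. It was 2621, 2883 and 2613 CPM in knockout and 2073, 2125 and 2058 CPM in wild-type lines. The genotypes did not overlap. Dppa5a averaged 2706 ± 154 CPM in knockout and 2085 ± 35.3 CPM in wild-type lines (SD, n = 3 each), with a log2 fold change of 0.38 (SE 0.0563, 95% interval 0.26 to 0.50, adjusted p = 1.5e-05, edgeR, Benjamini-Hochberg). Dppa1 and the pseudogene Dppa3-ps had no counts in any library.

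**Figure D3:**
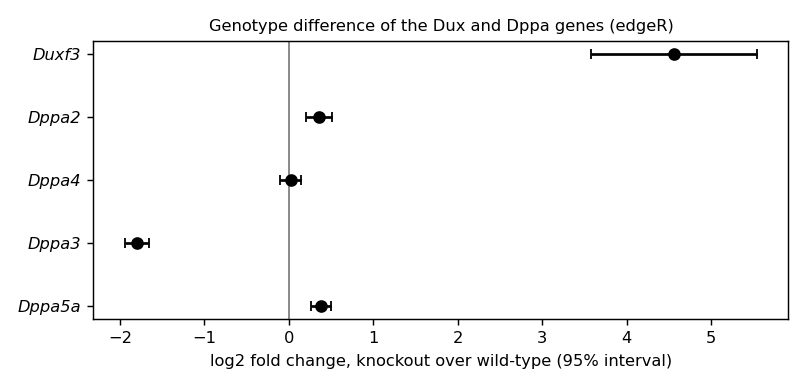
Log2 fold change of knockout over wild-type for the 5 genes, with 95% intervals from the edgeR fit. The interval of Duxf3 (3.58 to 5.54) lies far above 0, those of Dppa2 and Dppa5a lie just above it, that of Dppa4 spans it, and that of Dppa3 (-1.94 to -1.66) lies below it.

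Levels were compared between genes per kilobase of annotated exon. In knockout lines the order was Dppa5a (4371 CPM per kb), Dppa4 (84.5), Dppa2 (37.6), Dppa3 (29.3) and Duxf3 (0.826). In wild-type lines it was Dppa5a (3369 CPM per kb), Dppa3 (102), Dppa4 (83.3), Dppa2 (29.2) and Duxf3 (0.0414). Dppa3 thus stood below Dppa4 and Dppa2 in knockout lines and above both in wild-type lines. No neighbours in either order overlapped over the 3 lines. Close neighbours were Dppa2 (34.2 to 41.2 CPM per kb) and Dppa3 (27.4 to 30.4) in knockout lines, and Dppa3 (98.9 to 107) and Dppa4 (79.0 to 88.7) in wild-type lines. These levels are approximate, since between 53.0% (Duxf3) and 83.5% (Dppa3) of 50-base stretches were unique to the gene. Entries that share stretches with the Dppa genes had few counts beside them. Gm9788, which shares 27.1% of the Dppa2 stretches, had 50, 41 and 15 counts in knockout and 28, 8 and 22 in wild-type lines. Gm14058, which shares 22.4% of those of Dppa4, had 23, 29 and 8 counts in knockout and 13, 7 and 12 in wild-type lines.

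Within-library ratios of the members do not depend on the scaling between libraries, and all 10 pairs were compared. The log2 ratio of Dppa2 to Dppa5a was -4.97, -4.98 and -4.69 in knockout and -4.94, -4.91 and -4.75 in wild-type lines, a difference of -0.01 with overlapping groups (two-sided exact permutation p = 0.8). The sign of this difference changed when single libraries were left out. The log2 ratio of Dppa3 to Dppa5a was -6.75, -6.74 and -6.59 in knockout and -4.55, -4.48 and -4.50 in wild-type lines, a difference of -2.18. In the other 9 pairs the genotypes did not overlap, and each reached the smallest exact p of 0.1, so no pair could pass 0.05 or an adjustment over the 10. They include the pairs with Duxf3, whose separation largely follows from its passing the count filter only through the knockout libraries. The pairs also reuse the same genes, and how often ratios of other gene pairs separate was not tested.

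**Figure D4:**
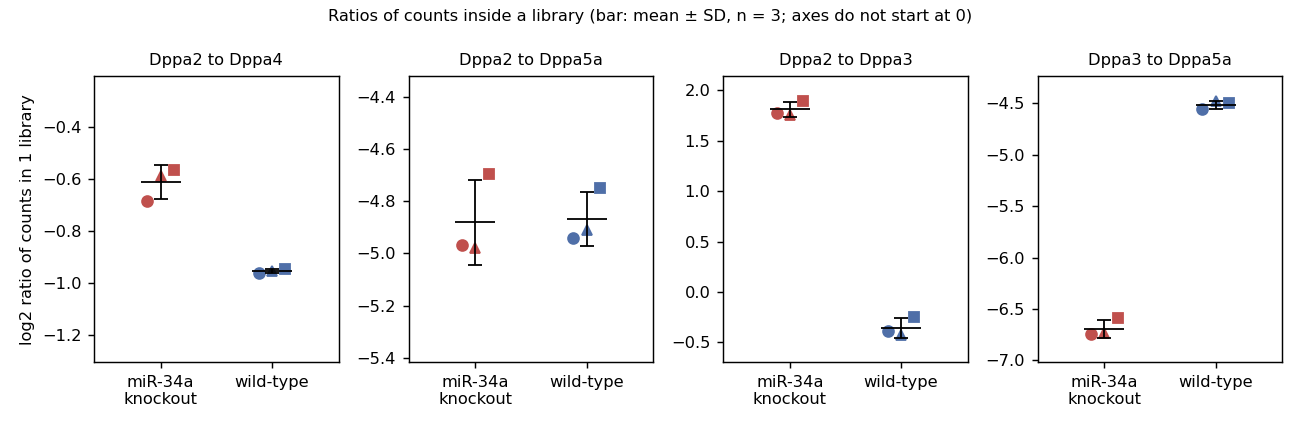
Log2 ratios of counts within each library for 4 pairs of the genes, with knockout left of wild-type, points for the 3 lines and bars for the mean and SD; the axes do not start at 0. The genotypes overlap for Dppa2 to Dppa5a and separate for Dppa2 to Dppa4, Dppa2 to Dppa3 and Dppa3 to Dppa5a.

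Genes beside the members were described to place the changes in the genome. Next to Dppa3, Gdf3, a TGF-beta family ligand 16.3 kb away, fell by 0.36 on the log2 scale (adjusted p = 1.5e-05), and Nanog, the pluripotency factor 77.2 kb away, rose by 0.31 (adjusted p = 1e-04, edgeR, Benjamini-Hochberg for both). Next to Dppa5a, Ooep, a KH domain gene of the maternal complex 7.93 kb away, rose by 0.53 (adjusted p = 5.9e-07, edgeR, Benjamini-Hochberg). On its other side Gsta4, a glutathione transferase gene 157.7 kb away, fell by 0.18 (adjusted p = 0.014, edgeR, Benjamini-Hochberg), a call lost without knockout replicate 1. Nectin3, a cell adhesion gene 1785 kb before Dppa4, fell by 1.09 (adjusted p = 1.3e-07, edgeR, Benjamini-Hochberg). Morc1, the nearest tested gene after Dppa2, fell by 0.39 (adjusted p = 0.00012, edgeR, Benjamini-Hochberg). No other entry of the count table overlapped a member.

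The list of 2-cell genes reported to lie downstream of Dux or MERVL held 32 names, of which 27 were tested. While 26.5% of all tested genes rose in knockout lines, all 27 of these rose. Their median log2 fold change was 6.47, or 5.90 with a floor of 3 wild-type counts in place of the fit for the 13 genes at or under it, against 0.01 over all tested genes. For 22 of the 27, no wild-type library was over the filter, which fixes their direction. Among the 5 with a wild-type library over the filter, Calcoco2, an autophagy receptor gene, averaged 135 ± 0.191 CPM in knockout and 61.2 ± 4.22 CPM in wild-type lines (log2 fold change 1.16, adjusted p = 6.3e-12, edgeR, Benjamini-Hochberg). P4ha2, a collagen prolyl hydroxylase gene, averaged 26.4 ± 2.76 CPM in knockout and 9.42 ± 0.372 CPM in wild-type lines (1.51, adjusted p = 1.7e-10, edgeR, Benjamini-Hochberg). The summed CPM of the list was 402 to 408 in knockout and 75.3 to 84.1 in wild-type lines. Tmem92, a membrane protein gene and a common marker of the 2-cell-like state, averaged 32.3 ± 1.73 CPM in knockout and 0.112 ± 0.128 CPM in wild-type lines.

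Of 23 reported silencers of Dux and MERVL, 12 fell, 3 rose and 8 were not called, with a median log2 fold change of -0.16, where 24% of all tested genes fell, 26.5% rose and the median was 0.01. Smchd1, a chromatin repressor of the X chromosome and of gene clusters, averaged 38.1 ± 4.23 CPM in knockout and 66.6 ± 1.68 CPM in wild-type lines (-0.83, adjusted p = 1.7e-08, edgeR, Benjamini-Hochberg). Lin28a, an RNA-binding protein reported to keep Dux silent through the nucleolus, averaged 301 ± 20.6 CPM in knockout and 509 ± 47.4 CPM in wild-type lines (-0.75, adjusted p = 4e-08, edgeR, Benjamini-Hochberg). Pias4, a SUMO ligase reported to restrain the DPPA2 protein, was among those that rose (0.31, adjusted p = 0.00037, edgeR, Benjamini-Hochberg). Trim28, the corepressor of KRAB zinc finger proteins, rose by 0.14 (adjusted p = 0.045, edgeR, Benjamini-Hochberg), a call lost when any library but knockout replicate 3 was left out and with other scalings (0.02 with library trends on GC content removed). Ncl fell by 0.25, and its call was lost when those trends were removed. Of 4 reported activators of Dux, the checkpoint kinase genes Chek1 and Atr fell (-0.63 and -0.37; the call of Atr was lost when GC trends were removed). The other two were not called: Nelfa had a log2 fold change of 0.11 (0.15 and called without knockout replicate 3), and Trp53, the p53 gene, of -0.06 (-0.16 and called with GC trends removed).

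DPPA3 protects DNA methylation in the zygote and restrains UHRF1 in oocytes. Beside it 13 methylation writers, erasers and protectors were listed, 12 of them tested. Of these 4 rose, 2 fell and 6 were not called, with a median of 0.04; the share called was about that of all tested genes (50.5%). Dnmt3b, a de novo methyltransferase gene, averaged 167 ± 11.3 CPM in knockout and 521 ± 28.1 CPM in wild-type lines, and fell by 1.64 on the log2 scale (adjusted p = 7.3e-14, edgeR, Benjamini-Hochberg). Zfp57, which guards imprint methylation, averaged 530 ± 19.8 CPM in knockout and 270 ± 9.17 CPM in wild-type lines (0.98, adjusted p = 2.6e-11, edgeR, Benjamini-Hochberg). Uhrf1, whose protein DPPA3 binds, averaged 627 ± 36.9 CPM in knockout and 563 ± 18.3 CPM in wild-type lines (0.16, adjusted p = 0.021, edgeR, Benjamini-Hochberg), a call lost without knockout replicate 1, wild-type replicate 2 or wild-type replicate 3 and with GC trends removed (0.06). Dnmt1, the maintenance methyltransferase gene, was not called (-0.05), but was with GC trends removed (-0.16).

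Among 20 genes listed as silenced by promoter methylation, most but not all of them germline genes, 18 were tested. Of these 15 rose, 0 fell and 3 were not called, where 26.5% of all tested genes rose and 24% fell. The median log2 fold change was 1.00, and for 2 of the 18 no wild-type library was over the filter. Syce1, a synaptonemal complex gene, averaged 12.1 ± 2.41 CPM in knockout and 3.73 ± 0.183 CPM in wild-type lines (1.75, adjusted p = 8.7e-09, edgeR, Benjamini-Hochberg). Tex19.1, a germ cell gene that restrains retrotransposons and, of this list, had the highest mean, averaged 120 ± 3.88 CPM in knockout and 84.8 ± 3.4 CPM in wild-type lines. Ddx4, the germ cell helicase gene, averaged 12.9 ± 0.908 CPM in knockout and 13.4 ± 0.477 CPM in wild-type lines and was not called.

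Dppa5a and the other Dppa genes are also pluripotency markers. Of the 23 other pluripotency genes tested, 15 rose, 5 fell and 3 were not called, with a median of 0.29, where 26.5% of all tested genes rose and 24% fell. Pou5f1 rose by 0.44 on the log2 scale (adjusted p = 2.1e-05, edgeR, Benjamini-Hochberg). Counts at Pou5f1, Sox2 and Klf4 may include the reprogramming transgenes. Tcl1, an AKT coactivator gene, rose by 1.21 (adjusted p = 4.7e-11, edgeR, Benjamini-Hochberg). Among the 5 that fell were Lin28a (-0.75, adjusted p = 4e-08) and Gdf3 (-0.36, adjusted p = 1.5e-05, edgeR, Benjamini-Hochberg for both). Of 8 genes listed beside Dppa5a for a KH domain or for the maternal complex, only 4 were tested. Of these Ooep and Padi6 rose, and Khdc3 and Tle6 were not called. Padi6 had no wild-type library over the filter, which fixes its direction. Both uncalled genes depended on the setting: Tle6 was called higher in 4 alternatives, among them at 0.43 without knockout replicate 3 and at 0.38 without wild-type replicate 3, and Khdc3 was called lower at -0.31 with GC trends removed and the replicate block.

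**Figure D5:**
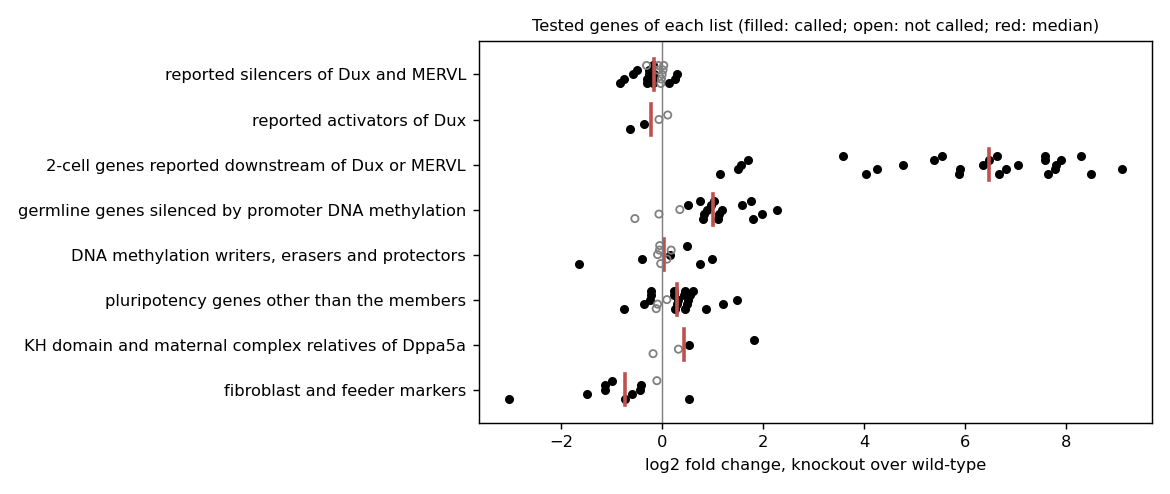
Log2 fold change of knockout over wild-type for each tested gene of the lists, filled where called and open where not, with the list median in red. The 27 2-cell genes all lie above 0, and for 22 of them the count filter fixes the direction. The germline list lies mostly above 0, and the silencers of Dux lie on both sides with a median of -0.16.

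Dppa3 also marks primordial germ cells and oocytes, and markers of those cells were set beside it. Of 8 primordial germ cell markers 3 rose, 3 fell and 2 were not called, in a comparison that called 50.5% of all tested genes. Their summed CPM was 223 to 234 in knockout and 291 to 312 in wild-type lines. The fall of Tfap2c, the most abundant of them, was at least as large as this difference, so the sum does not describe the other markers. Prdm1, a germ cell specifier gene, averaged 8.51 CPM in knockout and 18.4 CPM in wild-type lines (-1.07, adjusted p = 8.1e-08, edgeR, Benjamini-Hochberg). Tfap2c, a partner of Prdm1, averaged 83.3 CPM in knockout and 164 CPM in wild-type lines (-0.97, adjusted p = 4.7e-11, edgeR, Benjamini-Hochberg). Prdm14 rose instead (0.60, adjusted p = 7.8e-06, edgeR, Benjamini-Hochberg). So did Dazl, at 5.09 CPM in knockout and 2.37 CPM in wild-type lines (1.12, adjusted p = 4.4e-05, edgeR, Benjamini-Hochberg). Of 8 oocyte markers only Zp3 passed the count filter, and it fell by 0.66. The oocyte markers summed to 5.37 to 5.62 CPM in knockout and 6.66 to 8.77 CPM in wild-type lines, and Oosp1 was at 0 in every library. Whether such cells take part in the Dppa3 difference was not tested.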

How the data were processed

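Poly(A) RNA from 6 mouse iPSC lines was measured, 3 per genotype, grouped by the labels. The deposited values are raw read counts per gene, per the labels and the whole-number values, made with TopHat2 2.0.11 and featureCounts 1.4.5 on mm10, per the submitters' processing notes. Counting options and strand use were not given in the sources at hand. A repeat-run table had 6 columns whose names matched no label; they were not used.

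Identifiers were named and placed with GENCODE M21. CPM used gene counts only, leaving out 902 repeat entries. Genes past filterByExpr were tested with edgeR 4.0.16 (R 4.3.3; TMM, glmQLFit with robust = TRUE, glmQLFTest, two-sided, no covariate) and Benjamini-Hochberg adjustment over all 14717. In the shallowest library 3 counts equal 0.378 CPM. Ratio intervals are exact at 95%, and they and the floors cover counting error only. Within-library ratios added 0.5 to each count and used exact permutation tests (SciPy 1.17.1). The fit was tested on simulated data.

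Members and lists were chosen with earlier results of these data known. Named genes are the members, other Dppa or Dux entries, the 3 highest and the 2 smallest p in each direction per list, nearest genes, genes sharing stretches, and the 3 genes of most similar profile. Alternatives were other scalings, DESeq2 1.42.0, limma voom (limma 3.58.1), other filters, robust = FALSE, GC trends removed, a replicate block, and libraries left out.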

Additional observations from a re-analysis of the deposited data

How the results depend on the processing

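The calls of Duxf3, Dppa2, Dppa3 and Dppa5a and their directions held under all 17 alternatives run, with log2 fold changes of 4.02 to 5.25, 0.28 to 0.50, -1.84 to -1.70 and 0.34 to 0.41 for these genes. Dppa4 was not called under any, and its sign changed without both shallow libraries, knockout replicate 3 and wild-type replicate 2 (-0.040), and among fits that left out 1 library (-0.027 to 0.075). The difference in the log2 ratio of Dppa2 to Dppa5a ran from -0.11 to 0.045 when 1 library was left out. With GC trends removed, the log2 fold changes of Dppa2, Dppa5a and Dppa4 were 0.50, 0.38 and 0.03. Within-library ratios do not correct for such trends and were not recomputed in that setting. The labels give no pairing by replicate number, and a check of the libraries did not settle it. Deviations of same-numbered libraries correlated at 0.0885, -0.0198 and 0.110. Knockout replicates 1 and 3 correlated best with their own number, and replicate 2 did not. With the replicate block 7833 genes were called, against 7433, and Duxf3, Dppa2, Dppa4, Dppa3 and Dppa5a had log2 fold changes of 4.58, 0.36, 0.03, -1.80 and 0.38 with no change of call. When 1 library was left out, 6118 to 7985 genes were called, and DESeq2 called 6029.

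Of 75 other named genes tested, 54 kept their direction and their side of the threshold under every alternative in which they were tested, which was 16 of the 17 for Gm4981, Gm14058 and Padi6 and 15 for ENSMUSG00000096702. Signs changed for genes that were not called: with GC trends removed, Ddx4 was at 0.093, Tet1 at 0.048 and Dazap2 at -0.0019, and with the replicate block added Ddx4 was at 0.095 and Tet1 at 0.049. With no count filter Slc25a13 was at -0.0071 and Dazap2 at -0.0024. Without both shallow libraries Col1a2 was at 0.064, Slc25a13 at -0.035, Hax1 at -0.020 and Dazap2 at -0.033. When 1 library was left out, Duxbl1 ran from -1.03 to 0.18, Khdc3 from -0.29 to 0.013, Slc25a13 from -0.047 to 0.079, Hax1 from -0.026 to 0.075 and Dazap2 from -0.016 to 0.065. The cause was not tested. Depth limits the Dux array, whose wild-type total of 6 counts sets the width of its ratio.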

Other observations

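Profiles most like each member over the 6 libraries were found by the root mean square distance between centred log2 CPM, among 13373 genes with a mean of at least 1 CPM. For Dppa3 the nearest were Tagln at 0.0671, Ina at 0.101 and Acta2 at 0.105. Tagln, a smooth muscle and fibroblast actin-binding gene, averaged 46.5 ± 0.674 CPM in knockout and 164 ± 9.55 CPM in wild-type lines, a difference that its choice as a near profile fixes. Acta2 encodes smooth muscle actin, and Ina encodes a neuronal intermediate filament. The fibroblast and feeder markers had a median log2 fold change of -0.74 over 11 tested genes, with Postn at 2.04 CPM in knockout and 15.8 CPM in wild-type lines. Their part in the Dppa3 difference was not tested.

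For Duxf3 the nearest were Gm2016 at 0.312, Krt80 at 0.320 and ENSMUSG00000096702 at 0.340. For Dppa2 they were Msrb1 at 0.0275, Fam122b at 0.0315 and Cep55 at 0.0360. For Dppa4 they were Slc25a13 at 0.0148, Hax1 at 0.0173 and Dazap2 at 0.0217. For Dppa5a they were Cd9 at 0.0263, Ap3b1 at 0.0307 and Jcad at 0.0309. These distances describe 6 libraries in 2 genotypes and say nothing of shared control.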
